A study of Homo sapiens with 8 samples.

Results

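The genes described here encode the proteasome, the protease that degrades ubiquitin-tagged proteins, together with the factors that assemble and activate it. They were chosen by name: every probe whose only platform symbol began with PSMA, PSMB, PSMC, PSMD, PSME or PSMG and went on with a number, with pseudogenes and antisense transcripts left out. The rule gave 65 of 31741 probes, for 47 of the 18336 genes with a probe of their own. PSMC3IP, a recombination factor whose symbol starts with the same letters, was left out with its 1 probe, and 1 probe listed for both PSMD4 and PIPSL was not used. The 47 genes formed 7 groups: 8 of the core alpha ring, 7 of the core beta ring, 4 immunoproteasome and thymoproteasome subunits, 9 of the base and 8 of the lid of the cap, 4 activators and 7 assembly chaperones.

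RNA came from 2 human liver cancer lines, HepG2 and PLC5 (PLC/PRF/5), each as control cells and as cells given 10 µM GSK343, an inhibitor of the histone methyltransferase EZH2, in medium with serum. Each of the 4 groups had 2 one-colour arrays, 8 in all. The sample names and the design text give 16 hours of exposure, whereas the treatment protocol gives an incubation of 6 hours. The labels do not state what the control cells received. They also do not state whether both arrays of a group stem from independent cultures, and the p-values then reflect only the spread between arrays, which may be technical.

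The deposited values were background-subtracted intensities with array medians of 226 to 552, which were quantile normalized here over the 8 arrays. A gene was read at its brightest probe, and differences were tested with limma over all 31741 probes. A gene was called at a Benjamini-Hochberg adjusted p under 0.05, and ± gives the standard error from limma (n = 2 arrays in each group). Of the 47 genes, 45 had a mean normalized intensity of at least 64; PSMA8, a testis subunit, and PSMB11, the thymus subunit, were dimmer and, although counted among the 47, are not described further. Intensities of different probes are not comparable with each other, so each gene was compared only with itself across arrays. HepG2 carried the markers of a liver cell, and PLC5 did so less: 7 of 8 hepatocyte markers were lower in control PLC5, among them albumin (ALB, mean intensity 145616 in HepG2 and 745 in PLC5, -7.61 ± 0.11 on the log2 scale, limma adjusted p = 4.3e-10), while fibrinogen beta (FGB) was higher by 2.08. The summed intensity of the 8 markers was 1091829 to 1158968 in control HepG2, 1198398 to 1216487 with GSK343, 317564 to 350638 in control PLC5 and 318571 to 344469 with GSK343, with no marker at 0 in either line, and its part in the differences between the lines was not tested. Within a line, bulk RNA cannot tell fewer cells that express a gene from less of its RNA per cell.

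The proteasome is a barrel of stacked rings. The outer alpha rings gate it and the inner beta rings hold its proteolytic sites, of which PSMB5 carries the chymotrypsin-like, PSMB6 the caspase-like and PSMB7 the trypsin-like activity. A cap whose base of ATPases unfolds the substrate and whose lid removes ubiquitin sits on the barrel, and activators can take the cap's place. Interferon gamma induces PSMB8, PSMB9 and PSMB10, which replace the catalytic subunits and give the immunoproteasome, whose products are presented on MHC class I. When proteasome activity falls, the transcription factor NFE2L1 raises the genes of the whole particle together.

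**Figure D1:**
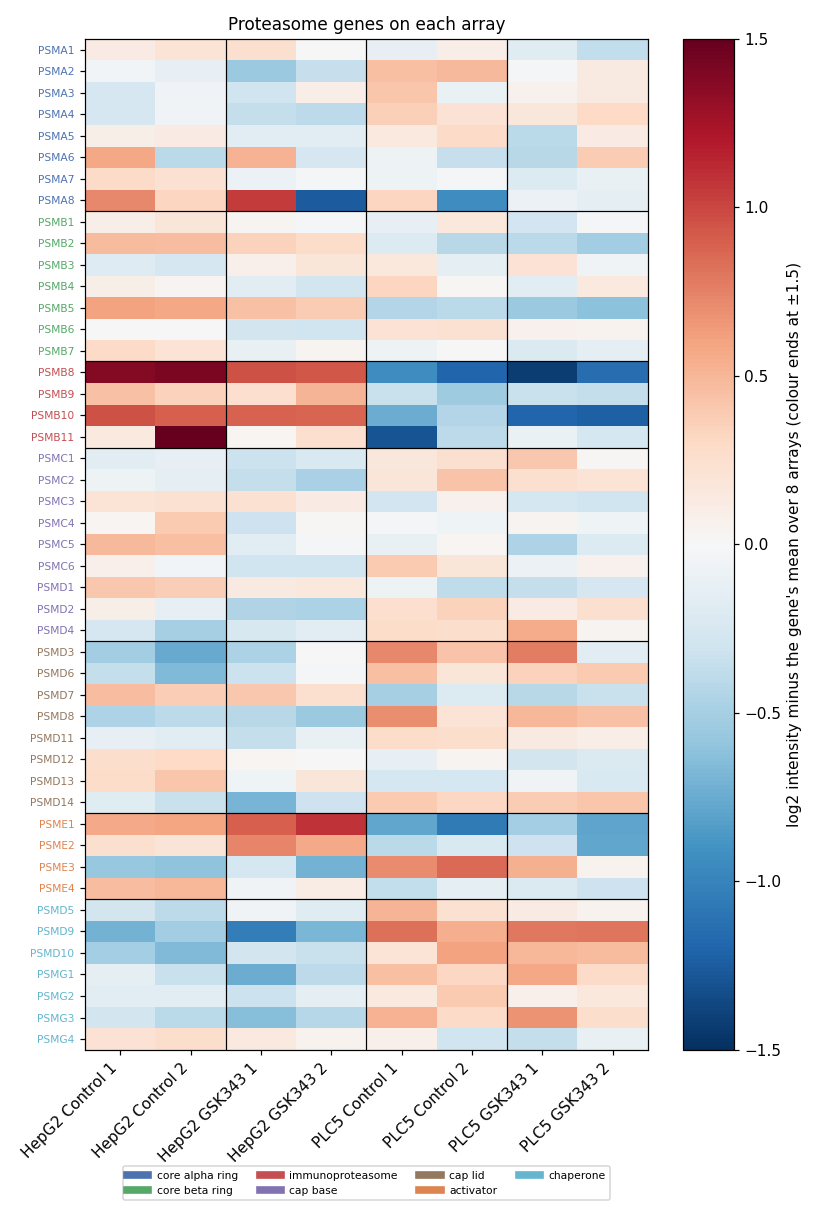
Heat map of the 47 genes (rows, by group of the particle) in the 8 arrays (columns, by cell line and treatment). Colour gives the log2 normalized intensity minus the gene's mean over the arrays, with the ends of the scale at plus and minus 1.5, and shows that the lines differ more than the treatments.

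The control cells of the 2 lines were compared first, because they differed most. Of the 47 genes, 18 were higher and 16 lower in control PLC5 than in control HepG2, 34 calls against a background of 58.5% of all 18336 genes called. In percentages, 38.3% of the members were higher and 34% lower, beside 26.8% and 31.6% of all genes, so a difference between the lines was common among all genes. The median difference of the members was 0.11 on the log2 scale and that of all genes was -0.09. The control arrays of PLC5 lay wholly above those of HepG2 in 22 members (46.8%, beside 35.9% of all genes) and wholly below in 20 (42.6%, beside 42.9%). By group of the particle, all 4 immunoproteasome genes were lower, with PSMB11 dim and its level not read, and 6 of the 7 chaperones were higher.

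PSMB8, the immunoproteasome's chymotrypsin-like subunit, gave 5751 and 5863 in the HepG2 controls and 1164 and 973 in the PLC5 controls. The 2 lines did not overlap, and the difference was -2.45 ± 0.14, a 5.46-fold lower level in PLC5 (limma adjusted p = 8.91e-07). A second PSMB8 probe gave -1.84 (adjusted p = 3.96e-05). PSMB10, the trypsin-like subunit, gave 739 and 714 in HepG2 and 228 and 281 in PLC5, again without overlap. Its difference was -1.52 ± 0.14, or 2.87-fold (adjusted p = 2.14e-05). Without normalization between arrays the PSMB10 call was lost (adjusted p = 0.0941), while PSMB8 was lower and called under every setting run.

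PSMB9, which takes the place of PSMB6, gave 4388 and 4123 in HepG2 and 2557 and 2243 in PLC5. The arrays of the lines did not overlap, with a difference of -0.83 ± 0.13 (adjusted p = 0.000594), but its sign turned without normalization (0.14) and its call was lost with quantile normalization within each line (-0.07, adjusted p = 0.661). Both settings raised the median of all genes, to 0.84 and 0.68, and relative to that median PSMB9 was at -0.74 to -0.70 under each of the 4 scalings. The antigen peptide transporter TAP1, which lies beside PSMB9 in the genome, was not called (-0.13 ± 0.11, adjusted p = 0.328). Of 9 genes of interferon control and antigen presentation measured beside the members, 4 were higher in PLC5 (44.4%) and 1 was lower (11.1%). Over all genes these shares were 26.8% and 31.6%. Among the 9, IRF1, an interferon-induced activator, was higher by 1.10, and NLRC5, which activates MHC class I genes, was lower (-1.01 ± 0.22). B2M, the light chain of MHC class I, was higher by 0.83. Without normalization NLRC5 was at -0.03 (adjusted p = 0.941) and with normalization within each line at -0.24 (adjusted p = 0.375), and with median centring B2M was at 0.38 (adjusted p = 0.104). Leukocytes are rich in immunoproteasome, and the RNA here came from cancer cell lines. The summed intensity of 5 leukocyte markers was 11844 to 14769 in control HepG2 and 4659 to 6213 in control PLC5. The 2 markers lower in PLC5 were LYZ (means 9193.6 and 4659.8) and CD14 (3846.5 and 563.5), and their part in the result was not tested. The defining leukocyte marker PTPRC was dim in all groups, with means of 23.8, 16.2, 23.9 and 19.9. CD3E had means of 38.1, 21.8, 21.3 and 33.6, and CD79A of 121.5, 136.8, 104.8 and 115.9.

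The promoters of these genes are shown because the 5 members were lower together in PLC5, are induced by interferon, and in the case of PSMB9 share a stretch of genome with TAP1. Sequences are RefSeq's (GRCh38.p14), 250 bases before to 50 after the first listed start, on the gene's own strand, 5′ to 3′, with capitals marking the interferon-stimulated response element core, GAAA and a second GAAA 2 bases later, on either strand (overlapping matches joined). The promoters are at chr6:32844630-32844929 (minus strand), chr6:32853942-32854241 (plus), chr6:32853655-32853954 (minus), chr16:67936801-67937100 (minus), chr14:24135944-24136243 (plus) and chr14:24146561-24146860 (minus).
PSMB8: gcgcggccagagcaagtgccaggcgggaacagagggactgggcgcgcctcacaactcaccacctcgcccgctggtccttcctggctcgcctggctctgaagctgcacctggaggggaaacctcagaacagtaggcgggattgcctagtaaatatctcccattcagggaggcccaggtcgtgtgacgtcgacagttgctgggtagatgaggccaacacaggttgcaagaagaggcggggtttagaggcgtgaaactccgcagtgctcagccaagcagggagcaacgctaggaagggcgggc
PSMB9: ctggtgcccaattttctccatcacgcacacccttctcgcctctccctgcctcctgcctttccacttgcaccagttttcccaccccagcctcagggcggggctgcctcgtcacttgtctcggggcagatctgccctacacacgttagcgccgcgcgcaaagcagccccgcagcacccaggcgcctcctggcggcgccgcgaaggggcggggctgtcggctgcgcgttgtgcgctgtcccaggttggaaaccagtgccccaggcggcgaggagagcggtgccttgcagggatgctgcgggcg
TAP1: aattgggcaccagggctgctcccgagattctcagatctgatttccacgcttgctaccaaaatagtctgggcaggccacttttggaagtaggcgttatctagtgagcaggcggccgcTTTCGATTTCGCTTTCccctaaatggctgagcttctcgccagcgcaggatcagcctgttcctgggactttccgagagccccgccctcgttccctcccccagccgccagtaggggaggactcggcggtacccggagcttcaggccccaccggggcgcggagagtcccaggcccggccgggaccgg
PSMB10: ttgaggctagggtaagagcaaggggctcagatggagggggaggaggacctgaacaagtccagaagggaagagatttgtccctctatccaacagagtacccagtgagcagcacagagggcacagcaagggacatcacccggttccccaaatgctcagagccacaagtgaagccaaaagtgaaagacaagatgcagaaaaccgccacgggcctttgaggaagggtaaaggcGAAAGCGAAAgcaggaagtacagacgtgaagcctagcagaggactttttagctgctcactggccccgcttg
PSME1: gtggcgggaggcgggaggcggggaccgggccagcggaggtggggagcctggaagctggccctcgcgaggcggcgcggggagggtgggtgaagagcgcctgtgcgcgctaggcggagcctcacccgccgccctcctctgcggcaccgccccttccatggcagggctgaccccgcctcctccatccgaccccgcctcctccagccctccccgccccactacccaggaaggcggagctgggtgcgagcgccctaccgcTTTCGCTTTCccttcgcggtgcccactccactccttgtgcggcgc
PSME2: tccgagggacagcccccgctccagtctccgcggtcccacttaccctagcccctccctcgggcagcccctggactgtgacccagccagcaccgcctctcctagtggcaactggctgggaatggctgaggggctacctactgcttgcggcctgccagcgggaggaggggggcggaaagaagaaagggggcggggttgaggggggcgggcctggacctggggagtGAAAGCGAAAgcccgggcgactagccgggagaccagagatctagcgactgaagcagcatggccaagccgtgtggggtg
Counted from the start site, the core began at base -21 in PSMB10, at -28 in PSME2 and at 6 in PSME1, and TAP1 held 2 overlapping copies at -134 and -128. The windows of PSMB8 and PSMB9 held none, which says only that these letters are not in them. TAP1 and PSMB9 start 488 bases apart on opposite strands. Over all members in the promoter table the core was present in 6 of 41 (14.6%: PSMA4, PSMB4, PSMB10, PSME1, PSME2 and PSMG4), beside 3.65% of 27305 promoters in all. The antioxidant response element TGACNNNGC, to which NFE2L1 and its partners bind, was in 13 of 41 (31.7%) beside 13.6%, searched on both strands. The GAS element TTCNNNGAA was in 5 of 41 (12.2%) beside 7.88% and the CCAAT box in 19 of 41 (46.3%) beside 35.7%.

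The constitutive catalytic subunits did not move as 1 group. PSMB5 gave 202760 and 199757 in control HepG2 and 97851 and 100300 in control PLC5, which did not overlap (-1.02 ± 0.08, adjusted p = 4.78e-06), a 2.03-fold lower level that was called under every setting. PSMB6 was slightly higher, at 83317 and 83402 against 96134 and 97096 (0.21 ± 0.08, adjusted p = 0.0399), and PSMB7 gave 81362 and 77004 against 63001 and 66355 (-0.29 ± 0.09, adjusted p = 0.0234). The sign of PSMB6 turned with median centring (-0.23) and that of PSMB7 without normalization (0.29). PSMB5 and its immunoproteasome counterpart PSMB8 were both lower in PLC5. PSMB2, a beta subunit with no catalytic site, was also lower (50727 and 50295 against 31789 and 27478, -0.77 ± 0.10), although without normalization it was at -0.07 (adjusted p = 0.774) and with normalization within each line at -0.23 (adjusted p = 0.0743). In the alpha ring PSMA2 was higher (110744 and 104719 against 156300 and 159840, 0.55 ± 0.10), as was PSMA4 (128531 and 147307 against 195152 and 177744, 0.44 ± 0.10), and PSMA7 was lower (166608 and 158959 against 129246 and 134347, -0.30 ± 0.08). With median centring the PSMA2 call was lost (0.02, adjusted p = 0.953), and its other probes gave 0.14 and -0.31, neither called. The sign of PSMA4 turned with median centring (-0.11) and that of PSMA7 without normalization (0.13), and PSMA7 was at -0.05 with normalization within each line (adjusted p = 0.628).

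**Figure D2:**
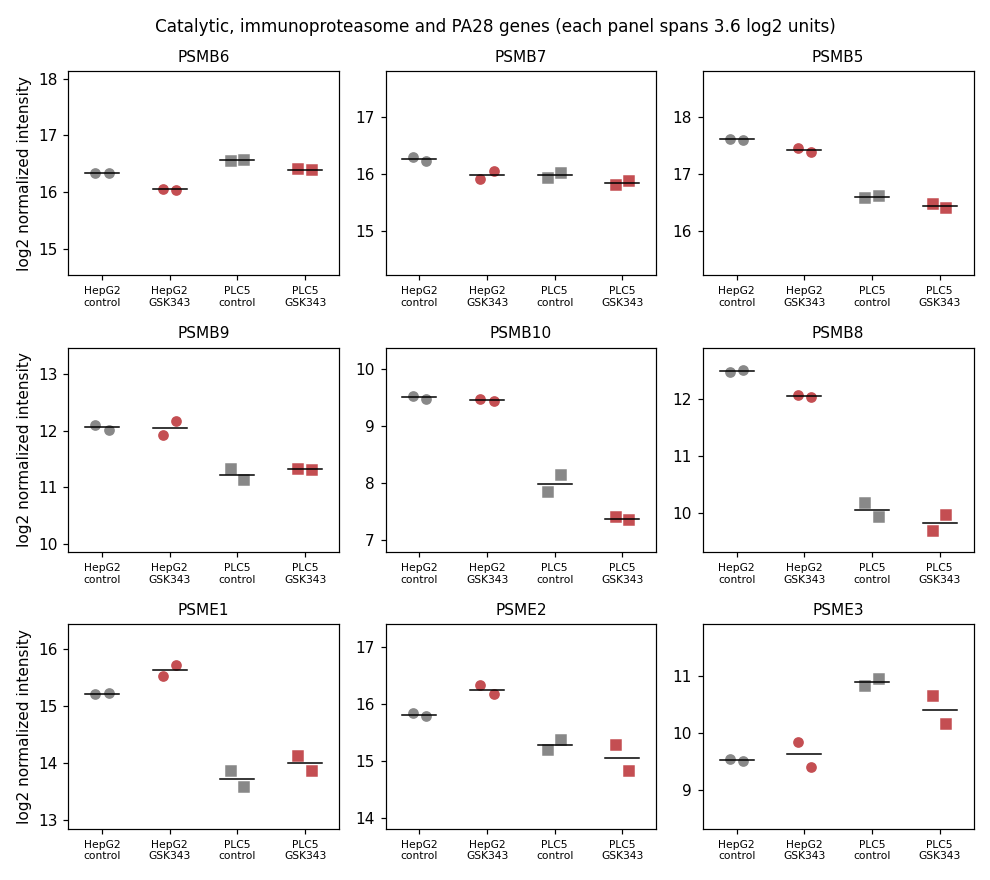
Log2 normalized intensity of the constitutive and immunoproteasome catalytic subunits and of the activators PSME1, PSME2 and PSME3 in each array, by group. Each panel spans 3.6 log2 units. PSMB5, PSMB8, PSMB9 and PSMB10 sit lower in all PLC5 arrays than in all HepG2 arrays.

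Among the activators, PSME1 and PSME2 form the interferon-inducible PA28 ring, PSME3 a related nuclear activator and PSME4 the large activator PA200. PSME1 gave 37936 and 38346 in control HepG2 and 14827 and 12226 in control PLC5, with no overlap (-1.5 ± 0.13, 2.83-fold, adjusted p = 1.7e-05). Its second probe gave -1.51. PSME2 was lower by less, at 58745 and 56912 against 37712 and 42526 (-0.53 ± 0.15, adjusted p = 0.0144), and its sign turned without normalization (0.14) and it was at -0.01 with normalization within each line (adjusted p = 0.948), while relative to the median of all genes it was at -0.69 to -0.44 under the 4 scalings. PSME3 ran the other way, with 742 and 722 in HepG2 and 1803 and 1983 in PLC5 (1.37 ± 0.19, adjusted p = 0.000329), and was called under every setting. PSME4 was lower (2858 and 2919 against 1604 and 1880, -0.73 ± 0.13, adjusted p = 0.00114), but its sign turned without normalization (0.27) and its second probe gave 0.34 (adjusted p = 0.212).

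The chaperones were the group with most members higher in PLC5. PSMD5, PSMD9 and PSMD10 bind the ATPases of the base during assembly, and PSMG1 to PSMG4 build the alpha ring in the pairs PSMG1 with PSMG2 and PSMG3 with PSMG4. PSMD9 gave 69.8 and 79.2 in HepG2 and 202 and 166 in PLC5 (1.30 ± 0.19, adjusted p = 0.000434), and PSMD10, also known as gankyrin, gave 11544 and 10385 in HepG2 and 18973 and 24855 in PLC5 (0.99 ± 0.14). PSMD5 (4268 and 3951 against 7358 and 6075, 0.70 ± 0.13) and PSMG3 (3670 and 3334 against 6338 and 5407, 0.74 ± 0.16) were higher likewise. PSMG1 (4343 and 3815 against 6589 and 5941, 0.62 ± 0.16) and PSMG2 (23042 and 23062 against 28472 and 33640, 0.42 ± 0.11) were higher by less. PSMG4 gave 15754 and 16278 in HepG2 and 14284 and 11021 in PLC5 and was not called (-0.35 ± 0.14, adjusted p = 0.0618), although its partner PSMG3 was. The 6 called chaperones kept their sign under every setting run, and PSMD5, PSMD9, PSMD10 and PSMG3 kept their call too.

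The lid and base were split. In the lid PSMD3 (511 and 432 against 1202 and 980, 1.21 ± 0.29), PSMD6 (14152 and 11447 against 24897 and 20585, 0.83 ± 0.15) and PSMD8 (8910 and 9293 against 19780 and 14111, 0.88 ± 0.15) were higher in PLC5. PSMD14, the deubiquitinase of the lid, was higher as well (31459 and 28312 against 46606 and 44244, 0.61 ± 0.13), and PSMD11 by 0.41 (23966 and 23174 against 31416 and 31195). PSMD7, the structural partner of PSMD14, was lower (26514 and 24855 against 13690 and 16688, -0.76 ± 0.12). PSMD13 (16434 and 18130 against 11340 and 11279, -0.61 ± 0.12) and PSMD12 (36973 and 37674 against 28177 and 31498, -0.33 ± 0.09) were lower too. Without normalization the value of PSMD7 was 0.00. In the base PSMD4, a ubiquitin receptor (34564 and 29089 against 50008 and 49636, 0.65 ± 0.16), PSMC2 (35432 and 34002 against 42492 and 50148, 0.41 ± 0.11) and PSMD2 (72903 and 63001 against 81842 and 87430, 0.32 ± 0.10) were higher. PSMD1 (82934 and 80656 against 59270 and 48046, -0.62 ± 0.11) and the ATPase PSMC5 (61197 and 59768 against 40504 and 44835, -0.51 ± 0.11) were lower. Without normalization PSMD1 was at -0.02 (adjusted p = 0.947) and with normalization within each line at -0.18 (adjusted p = 0.167). With normalization within each line PSMC5 (0.00) and PSMD7 (-0.17) were not called either, and with median centring the calls of PSMC2 (0.16), PSMD4 (0.40), PSMD11 (0.21) and PSMD14 (0.37) were lost. The signs of PSMD2, PSMC5, PSMD12 and PSMD13 turned under another scaling.

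**Figure D3:**
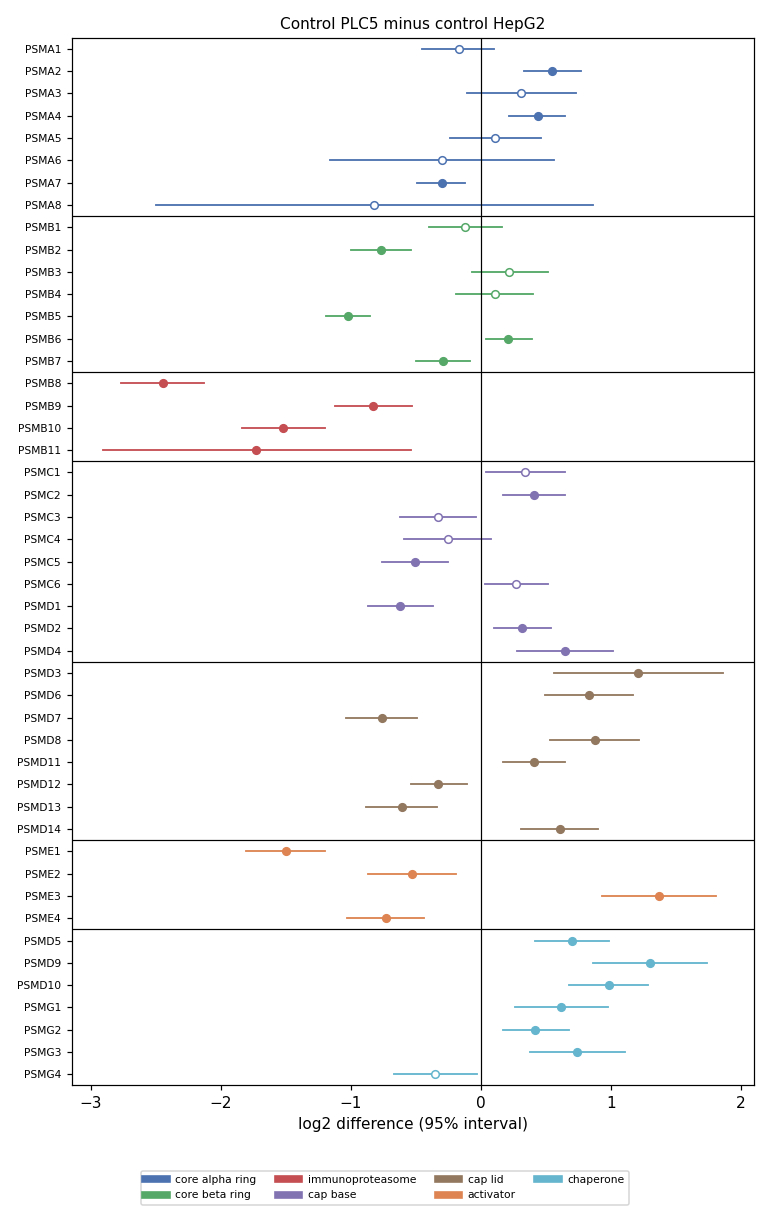
Log2 difference of control PLC5 minus control HepG2 for each of the 47 genes (points, with 95% intervals), by group of the particle. Filled points were called; all 4 immunoproteasome genes lie left of 0 and 6 of 7 chaperones lie right of it.

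Of the 34 calls, 21 held with each array left out in turn, and 10 held under every setting run: PSMB5, PSMB8, PSMD5, PSMD6, PSMD8, PSMD9, PSMD10, PSME1, PSME3 and PSMG3. The calls lost without at least 1 array were those of PSMA7, PSMB6, PSMB7, PSMB11, PSMC2, PSMD2, PSMD3, PSMD4, PSMD11, PSMD12, PSME2, PSMG1 and PSMG2, and the fewest members, 24, were called without the second HepG2 control array. The split between higher and lower calls moved with the scaling, from 18 and 16 to 9 and 21 with median centring, to 29 and 3 without normalization, and to 26 and 4 with quantile normalization within each line. Relative to the median of all genes, PSMB8 stayed at -2.36 to -2.37 and PSMB10 at -1.43 to -1.35 under the same scalings. PSMF1, the proteasome inhibitor PI31, was lower in PLC5 (-1.87 ± 0.13, adjusted p = 2.71e-06) and POMP, which assembles the beta ring, was higher (0.46 ± 0.15, adjusted p = 0.025), though POMP was not called with median centring (0.31, adjusted p = 0.179). Of 15 proteasome-associated proteins outside the PSM names, 7 were higher (46.7%) and 6 lower (40%), beside 26.8% and 31.6% of all genes. Of 14 genes that control proteasome transcription 8 were higher (57.1%), NFE2L1 among them (0.76 ± 0.10), and 2 lower (14.3%). ADRM1, a ubiquitin receptor of the cap, was lower (-0.48 ± 0.12) with a sign that turned without normalization. Of 9 genes of ubiquitin supply and shuttling, 4 were higher (44.4%), with the receptor SQSTM1 at 2.24, and 1 lower (11.1%). UBB was not called (-0.14 ± 0.13).

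GSK343 in HepG2 was then compared with control HepG2. Here 0 of 47 members rose and 4 fell (8.51% lower), against a background of 8.8% of all genes called, 5.35% higher and 3.45% lower. The members' median was -0.19 on the log2 scale and that of all genes -0.01, with 36 members below 0 and 11 above. With the p unadjusted, 15 members (31.9%) lay below and 3 (6.38%) above their controls at p under 0.05, beside 13.7% and 14.4% of all genes. Of the 963 genes at least as bright as the median member, 23.7% lay below and 13.8% above by the same measure. Of these bright genes 7.79% were called lower and 5.4% higher, with a median of -0.07. The treated arrays lay wholly below the controls in 25 of 47 members (53.2%, beside 30.9% of all genes) and wholly above in 8 (17%, beside 29.2%).

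The 4 genes that fell came from the base of the cap and from both core rings. PSMC5, an ATPase of the base, gave 61197 and 59768 in controls and 39090 and 43422 after GSK343. The treated arrays were below both controls, a difference of -0.55 ± 0.11 (adjusted p = 0.0245). PSMD2, a scaffold of the base and a docking site for ubiquitin receptors, gave 72903 and 63001 in controls and 50079 and 49485 treated, again without overlap (-0.45 ± 0.10, adjusted p = 0.0313). PSMB6, the caspase-like subunit, gave 83317 and 83402 in controls and 68497 and 67175 treated (-0.30 ± 0.08, adjusted p = 0.0482). PSMA7, of the alpha ring, gave 166608 and 158959 in controls and 127981 and 134810 treated (-0.31 ± 0.08, adjusted p = 0.0496). Each was lower in both treated arrays, by 1.47-, 1.36-, 1.23- and 1.24-fold, and the signs held under every setting run. Some of these values were small: PSMA7 was at -0.02 with the median of its probes (adjusted p = 0.904). PSMB6 was at -0.06 without normalization (adjusted p = 0.839). No call held with each array left out in turn: leaving out any 1 of the 4 HepG2 arrays left 0 members called. Without normalization, where the median of all genes was 0.48, 6 members were called higher and 0 lower, and with median centring 7 were called lower.

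PSMA7 and PSMB6 each had a second probe that did not repeat the fall, at 0.27 (adjusted p = 0.165) and 0.07 (adjusted p = 0.813), whereas PSMC5 and PSMD2 had only 1. Of the 16 members with several probes, 10 had probes of opposite sign and 6 (37.5%) of 1 sign, beside 52.5% of 5455 genes with several probes. The brightest probe was the lowest in 12 of the 16 (75%, beside 49.6%). Over all 65 probes the median was -0.14, and with the median of a gene's probes it was -0.10. Most members are bright: 29 of 47 were in the brightest 10% of genes, where all genes had a median of -0.06 with 6.49% called lower, and these 29 members had a median of -0.23 with 22 below 0 and 4 called lower.

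**Figure D4:**
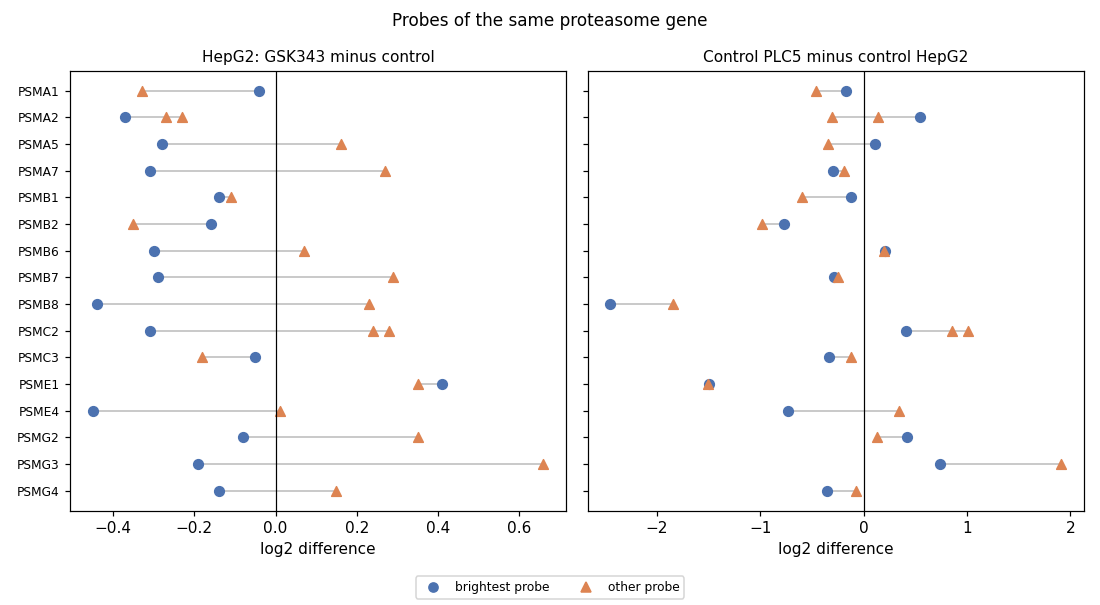
Log2 difference for the brightest probe (blue circle) and every other probe (orange triangle) of each of the 16 members with several probes, for GSK343 in HepG2 and for the control lines. In HepG2 the probes of 10 genes lie on opposite sides of 0; between the control lines those of 3 do.

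By group, the HepG2 medians were -0.25 in the alpha ring, -0.19 in the beta ring, -0.25 in the immunoproteasome, -0.31 in the base, -0.09 in the lid, 0.26 in the activators and -0.14 in the chaperones. The alpha ring and immunoproteasome medians include the dim PSMA8 (-0.62) and PSMB11 (-0.74). PSMB8, PSMB9 and PSMB10 were at -0.44, -0.01 and -0.05. At the brightest probe of each gene, the activators alone had a positive median. The other probes of the chaperones PSMG2, PSMG3 and PSMG4 lay above 0. PSME1 gave 37936 and 38346 in controls and 47673 and 53930 with GSK343, and PSME2 gave 58745 and 56912 in controls and 82934 and 73956 treated. The treated arrays of both were above the controls, but neither was called (0.41 ± 0.13, adjusted p = 0.0939; 0.44 ± 0.15, adjusted p = 0.104). PSME3 gave 742 and 722 in controls and 916 and 676 treated, which overlapped (0.10 ± 0.19), and PSME4 gave 2858 and 2919 in controls and 1992 and 2241 treated (-0.45 ± 0.13, adjusted p = 0.0655). The second probes of PSME1 and PSME4 gave 0.35 and 0.01, neither called.

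Of the catalytic subunits not called, PSMB5 gave 202760 and 199757 in controls and 181012 and 172833 treated (-0.19 ± 0.08, adjusted p = 0.156) and PSMB7 gave 81362 and 77004 in controls and 61582 and 68497 treated (-0.29 ± 0.09, adjusted p = 0.0895; second probe 0.29). PSMB8 gave 5751 and 5863 in controls and 4303 and 4234 treated (-0.44 ± 0.14, adjusted p = 0.0859; second probe 0.23). PSMB9 (3862 and 4608 with GSK343, -0.01 ± 0.13) overlapped its controls, and PSMB10 (708 and 697, -0.05 ± 0.14) lay just below its own; neither was called. PSMA2 was the lowest of the alpha ring apart from the dim PSMA8, at 110744 and 104719 in controls and 77781 and 89626 treated, which did not overlap (-0.37 ± 0.10, adjusted p = 0.0526), and its other probes gave -0.27 and -0.23. The other extremes were PSMA3 at 0.05, PSMB3 at 0.35 (adjusted p = 0.131), PSMD4 at 0.18, PSMD13 at -0.29 and PSMD3 at 0.40, all not called. Among the chaperones PSMG1 gave 2862 and 3653 with GSK343 (-0.33 ± 0.16), PSMG2 20485 and 23158 (-0.08 ± 0.11), PSMG3 2841 and 3289 (-0.19 ± 0.16) and PSMG4 14925 and 14060 (-0.14 ± 0.14), and PSMD10 was at 0.28. The second probes of PSMG2 (0.35, adjusted p = 0.086), PSMG3 (0.66, adjusted p = 0.0669) and PSMG4 (0.15) went the other way, and none was called. The median 95% interval half-width of the 45 bright members was 0.29, from 0.17 to 0.86, so a change within that width could not be told from 0.

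Of 14 genes that control proteasome transcription, 0 rose with GSK343 in HepG2 and 2 fell: MAFK (-0.98 ± 0.11, adjusted p = 0.00288) and MAFG (-0.64 ± 0.12, adjusted p = 0.0197), small Maf partners of NFE2L1. Both calls were lost without normalization (-0.47, adjusted p = 0.0891, and -0.12, adjusted p = 0.732). The 2 that fell were 14.3% of the list, beside 3.45% of all genes called lower and 5.35% called higher. NFE2L1 itself was at -0.24 ± 0.10 (adjusted p = 0.171). Of 15 associated proteins 0 were called, with POMP at -0.15, ADRM1 at 0.02 and PSMF1 at -0.17. Of 9 ubiquitin genes 1 fell, UBA6, a ubiquitin-activating enzyme (-0.57 ± 0.14, adjusted p = 0.0416), with UBB at 0.14; UBA6 was at -0.53 with median centring (adjusted p = 0.0765) and at -0.04 without normalization (adjusted p = 0.913). Of 9 interferon-control genes 1 rose, IRF2 (0.68 ± 0.16, adjusted p = 0.0368), with TAP1 at -0.07. Of the cell-type markers, FGB (-0.40 ± 0.09) and the leukocyte gene LYZ (-0.81 ± 0.18) fell too, with both calls lost without normalization (-0.09, adjusted p = 0.733, and -0.44, adjusted p = 0.171). The 5 leukocyte markers summed to 8671 to 9829 in treated cells, and the part of these markers in the result was not tested.

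In PLC5, 0 of 47 members were called by limma, against a background of 1.07% of all genes (0.834% higher and 0.235% lower). With the p unadjusted, 6 members (12.8%) lay below and 0 above their controls at p under 0.05, beside 8.2% and 7.88% of all genes. Of the 963 genes at least as bright as the median member, 15.9% lay below and 10.1% above, with a median of -0.06. The members' median was -0.11 beside -0.01 for all genes, with 30 below 0 and 17 above. Treated arrays lay wholly below controls in 15 members (31.9%, beside 22.8% of all genes) and wholly above in 2 (4.26%, beside 22.8%). The lowest adjusted p belonged to PSMB10, at 228 and 281 in controls and 168 and 163 treated (-0.61 ± 0.14, adjusted p = 0.0987); the treated arrays did not overlap the controls.

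Other low values in PLC5 were PSMA2 (156300 and 159840 in controls, 112852 and 124966 treated, -0.41 ± 0.10, adjusted p = 0.102) and PSME3 (1803 and 1983 in controls and 1598 and 1142 treated, -0.48 ± 0.19, adjusted p = 0.304). The 4 genes that fell in HepG2 gave -0.30 for PSMC5 (31780 and 37936 treated), -0.12 for PSMD2 (75012 and 81290), -0.16 for PSMB6 (86768 and 85833) and -0.11 for PSMA7 (118186 and 126148). All were below 0 and none was called. PSMB5 (90766 and 87224 treated), PSMB7 (57345 and 60675) and PSMB8 (821 and 1001) were at -0.15, -0.13 and -0.23. PSMB9 was at 0.09 (2577 and 2529 treated). The activators PSME1 (17967 and 14796 treated), PSME2 (40072 and 28973) and PSME4 (1784 and 1673) were at 0.28, -0.23 and -0.01.

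Group medians in PLC5 were -0.08 in the alpha ring, -0.15 in the beta ring, -0.07 in the immunoproteasome, -0.08 in the base, -0.01 in the lid, -0.12 in the activators and 0.05 in the chaperones. Here too the alpha ring and immunoproteasome medians include the dim PSMA8 (0.19) and PSMB11 (0.66). PSMB8, PSMB9 and PSMB10 were at -0.23, 0.09 and -0.61. The extremes not yet named were PSMA6 (0.19 ± 0.38, adjusted p = 0.867), PSMB4 (-0.18) and PSMB3 (0.08), PSMC6 (-0.30) and PSMC4 (0.03), PSMD3 (-0.26) and PSMD13 (0.13), and PSMD5 (-0.28) and PSMD9 (0.11). Of the chaperones of the alpha ring, PSMG1 gave 7185 and 5854, PSMG2 27087 and 28660, PSMG3 7048 and 5321 and PSMG4 10605 and 12508 in treated cells, and none was called. SQSTM1 rose (0.59 ± 0.09, adjusted p = 0.0243) as the 1 gene called of the 9 ubiquitin genes, with 0.35 under median centring (adjusted p = 0.217) and 0.54 without normalization (adjusted p = 0.284), where it was not called. In PLC5 0 of the 14 transcriptional, 15 associated and 9 interferon-control genes were called. NFE2L1 was at 0.40 ± 0.10 (adjusted p = 0.121), POMP at -0.08, ADRM1 at -0.43, PSMF1 at -0.17, UBB at -0.12 and TAP1 at 0.20.

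**Figure D5:**
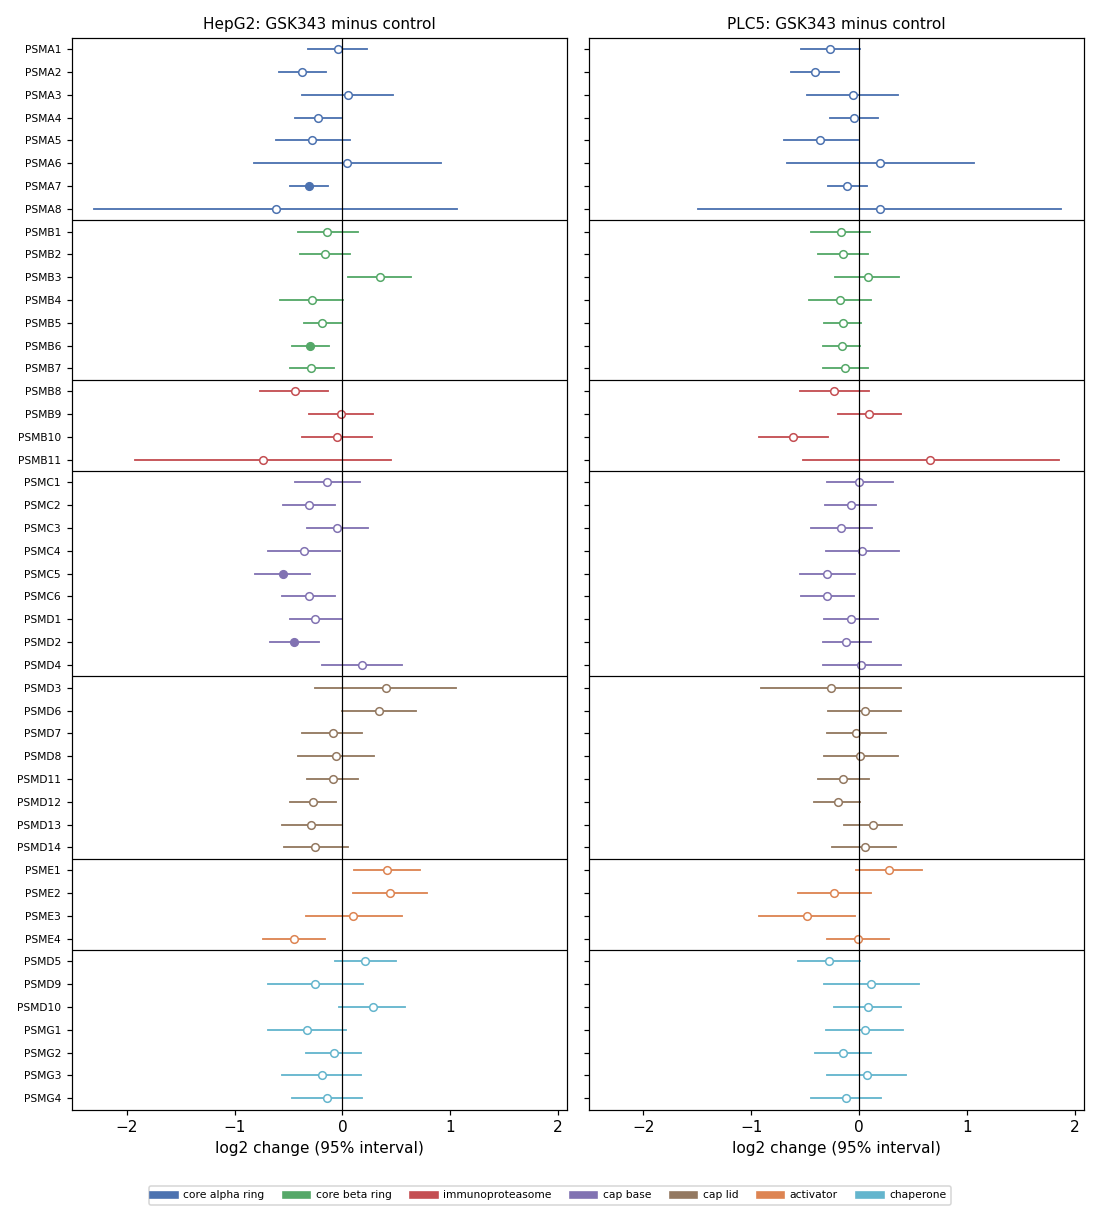
Log2 difference of GSK343 minus control for each of the 47 genes in HepG2 and in PLC5 (points, with 95% intervals), by group of the particle. Filled points were called: PSMA7, PSMB6, PSMC5 and PSMD2 in HepG2, and none in PLC5.

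The difference between the responses of the lines was tested directly, as the response in PLC5 minus that in HepG2. Limma called 0 of 47 members, against a background of 0.84% of all genes (0.436% higher and 0.404% lower), while 3 lay above and 3 below 0 at p under 0.05 with the p unadjusted (6.38% each, beside 8.67% and 9.82% of all genes). The median was 0.07 beside 0 for all genes. At the brightest probe of each gene, PSME2 had the lowest adjusted p and a difference of -0.67 ± 0.21 (adjusted p = 0.165), with its treated arrays above the controls in HepG2 and overlapping them in PLC5. PSMB10 was at -0.57 ± 0.20 (adjusted p = 0.202). Of the genes that fell in HepG2, PSMD2 was at 0.33 ± 0.14 (adjusted p = 0.273), PSMC5 at 0.26 ± 0.16 (adjusted p = 0.442), PSMB6 at 0.13 and PSMA7 at 0.20 (-0.53 at its second probe, adjusted p = 0.152), so their fall in HepG2 was not shown to differ from the change in PLC5. The extremes of the other groups were PSMA1 (-0.22), PSMB3 (-0.27) and PSMB7 (0.15), PSMD4 (-0.16) and PSMC4 (0.38), PSMD3 (-0.66) and PSMD13 (0.41), PSME4 (0.44), and PSMD5 (-0.49) and PSMG1 (0.38). The median interval half-width was 0.41, from 0.24 to 1.22.

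Set side by side, 25 members were below 0 in both lines and 6 above 0 in both, while 11 were below in HepG2 and above in PLC5 and 5 the reverse. Across the 47 genes, which are not independent, the responses correlated at Pearson r = -0.10 and Spearman rho = 0.01. These counts and correlations include the dim PSMA8 (-0.62 in HepG2 and 0.19 in PLC5) and PSMB11 (-0.74 and 0.66). PSMB11 was the lowest member in HepG2 and the highest in PLC5, so the sign of r is not interpreted. Of the genes that control proteasome transcription, MAFK differed between the responses (1.15 ± 0.16, adjusted p = 0.0285), and NFE2L1 did not pass (0.63 ± 0.14, adjusted p = 0.0865). The MAFK call was lost with median centring (0.98, adjusted p = 0.0554) and without normalization (0.68, adjusted p = 0.201).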

How the data were processed

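Per the labels' protocols, total RNA was linearly amplified and Cy5-labelled. The authors deposited a linear intensity for each probe on each array. How they scanned, flagged and background-corrected is not given in the sources used here. Values at or below 0 (up to 2091 probes, 6.59%, on an array) show that background had been subtracted. Probe symbols came from the platform annotation, with 1948 updated to current symbols; 977 probes with several symbols and 6024 with none were tested but name no gene.

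The intensities were quantile normalized over 8 arrays (limma 3.58.1, R 4.3.3), floored at 1 and taken to log2. Group means were fitted to all 31741 probes (lmFit, eBayes with trend, 4 residual degrees of freedom), with Benjamini-Hochberg adjustment over all of them. No filter on low values was used. Members and lists were chosen with earlier results of these data known, so no count is independent support. Every member may be named, and list genes were named where called. Some list genes are not reported here. The number of arrays limits the precision. Alternatives were other scalings, floors, moderation, probe rules, replicate blocks and each array left out.

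The replicate numbers did not pair the samples: same-number arrays deviated with correlations of -0.114 to 0.009.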

Additional observations from a re-analysis of the deposited data

How the results depend on the processing

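With 2 arrays per group and dim probes near the floor, small changes lay within the error. In HepG2, 4 members were called; the count was 7 with median centring, 1 with a floor of 64, 2 with a pseudocount of 16, 0 without the trend, 2 with robust moderation, 1 with a replicate block, 2 with the median of a gene's probes, and 2 with a crossed replicate block, which was added after seeing the data because the same-number arrays of the HepG2 groups correlated at -0.104. Leaving out 1 array gave 0 to 3. The members' median of -0.19 became -0.31 with centring, -0.10 with the median of probes and 0.18 without normalization, where the median of all genes was 0.48 and the members lay 0.30 below it (-0.30), and -0.19 to -0.15 with 1 array left out. In PLC5 the median was -0.28 with centring, -0.06 with the median of probes (all genes -0.01) and -0.11 to -0.09 with 1 array left out. There 0 members were called under every setting. The brightest probe was the lowest in PLC5 in 11 of the 16 members with several probes (68.8%, beside 40.5% of 5455 genes). The difference between responses had a median of 0.07, -0.25 without normalization (all genes -0.39) and 0.04 to 0.12 with 1 array left out, with 0 called throughout.

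Between the control lines the median of 0.11 became -0.24 with centring, 0.72 without normalization (all genes 0.84), 0.53 with normalization within each line (all genes 0.68) and -0.12 with the median of probes; it was 0.02 to 0.13, with 24 to 35 members called, with 1 array left out. Signs turned for PSMA4 (-0.11), PSMB6 (-0.23) and PSMD2 (-0.08) with centring; for PSMA7 (0.13), PSMB7 (0.29), PSMB9 (0.14), PSMC5 (0.15), PSMD7 (0.00), PSMD12 (0.40), PSMD13 (0.17), PSME2 (0.14) and PSME4 (0.27) without normalization; and for PSMB7 (0.14), PSMD12 (0.25), PSMD13 (0.00) and PSME4 (0.05) with normalization within each line. The median of all genes was -0.13 with centring, and the cause of these turns was not tested.

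The background moved too. Over all genes, 1614 were called in HepG2, with 3686 without normalization, 770 without the trend, 999 with the replicate block and 331 to 1441 with 1 array left out. In PLC5 the count of 196 became 309 with centring, 103 without normalization, 57 without the trend, 99 with the block, 70 with only the arrays compared, 347 with the dimmer 50% of probes left out (chosen after seeing the data) and 80 to 115 with 1 array left out. For the difference, 154 became 71 with centring, 272 with a floor of 64, 13 without the trend, 255 with robust moderation, 30 with the block, 233 with the median of probes and 21 to 81 with 1 array left out. The labels tie the replicate numbers to no shared culture or day.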
